A study of Mus musculus with 18 samples.

Results

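Macrophages grown from the marrow of mice given lipopolysaccharide (LPS) in vivo, under the label 1xLPS, were compared with and without a second exposure to LPS in culture. The response is measured by 6 of the 18 libraries of the series, taken by the arm and culture condition in their titles: 3 libraries of LPS-stimulated cells (1xLPS_LPS, called stimulated here) and 3 of cells with no in vitro stimulation (1xLPS_NO, unstimulated). All of the 43280 gene symbols of the count table were considered. The mice were wild-type C57BL/6J, and their marrow was matured into macrophages in culture, in F12 DMEM with 10% FBS. Polyadenylated RNA was sequenced on an Ion Proton instrument. The in vivo 1xLPS exposure is shared by both groups. The other 12 libraries, 3 of each culture condition from mice given PBS or 4xLPS in vivo, entered the same fit, and their responses are given only beside the 1xLPS response. The labels give no dose or duration for either exposure, and nothing in them ties a library to a mouse of its own. The p-values set the difference between groups against the spread of libraries within groups, estimated over all 18 libraries. That spread may be technical, so the p-values need not reach beyond these samples. In bulk RNA, fewer cells of a kind and less RNA per cell cannot be told apart.

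LPS, a component of the outer membrane of Gram-negative bacteria, is handed by the surface protein CD14 to Toll-like receptor 4 and its partner MD-2. The adaptor MyD88 then leads to NF-kappaB and AP-1, which switch on cytokine and chemokine genes, while the adaptor TRIF leads to interferon beta, whose secreted protein induces antiviral genes through STAT factors. The same exposure represses many genes of the resting macrophage, and it also induces inhibitors of the pathway itself, which is why macrophages that have met LPS before are often studied by a second exposure.

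The promoters of 6 of the strongly induced genes are shown because they carry the letters of the binding motifs of NF-kappaB or of interferon-activated factors close to the RefSeq start site. Each window runs from 250 bases before to 50 bases after the start (RefSeq, GRCm38.p6), 5′ to 3′ along the gene's strand. Capitals mark matches to GGGANTTTCC (the kappaB letters searched) or GAAANNGAAA (the letters of an interferon-stimulated response element, ISRE), each searched on both strands. The kappaB match begins 71 bases before the start in Cxcl1 (chr5:90890995-90891294, plus strand), 97 in Cxcl2 (chr5:90903649-90903948, plus), 73 in Cxcl3 (chr5:90785851-90786150, plus), 44 in Il6 (chr5:30012864-30013163, plus) and 77 in Gbp5 (chr3:142496684-142496983, plus). Gbp5 also holds an ISRE match 165 bases before its start, and Cxcl10 (chr5:92348840-92349139, minus strand) holds one 213 bases before its start.
Cxcl1: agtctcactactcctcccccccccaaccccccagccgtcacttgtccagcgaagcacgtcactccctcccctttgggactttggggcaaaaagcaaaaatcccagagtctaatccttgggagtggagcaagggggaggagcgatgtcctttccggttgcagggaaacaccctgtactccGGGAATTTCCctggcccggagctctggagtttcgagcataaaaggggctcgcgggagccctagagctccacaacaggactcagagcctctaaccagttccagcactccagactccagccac
Cxcl2: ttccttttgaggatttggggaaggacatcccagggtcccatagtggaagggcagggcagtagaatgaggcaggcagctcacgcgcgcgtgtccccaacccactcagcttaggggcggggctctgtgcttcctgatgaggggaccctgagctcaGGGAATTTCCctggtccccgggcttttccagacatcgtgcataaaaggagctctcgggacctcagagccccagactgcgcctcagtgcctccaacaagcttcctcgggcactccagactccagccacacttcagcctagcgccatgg
Cxcl3: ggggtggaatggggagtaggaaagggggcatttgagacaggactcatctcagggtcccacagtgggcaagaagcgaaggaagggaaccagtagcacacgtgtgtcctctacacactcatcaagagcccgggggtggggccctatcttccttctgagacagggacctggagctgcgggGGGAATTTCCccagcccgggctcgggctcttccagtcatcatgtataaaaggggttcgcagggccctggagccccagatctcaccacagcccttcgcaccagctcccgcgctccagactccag
Il6: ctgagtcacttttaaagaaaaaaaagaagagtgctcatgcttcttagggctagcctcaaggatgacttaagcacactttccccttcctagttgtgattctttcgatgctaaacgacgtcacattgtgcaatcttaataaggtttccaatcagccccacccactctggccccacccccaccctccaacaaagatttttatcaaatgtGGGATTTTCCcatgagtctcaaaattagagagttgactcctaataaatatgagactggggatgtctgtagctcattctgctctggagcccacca
Gbp5: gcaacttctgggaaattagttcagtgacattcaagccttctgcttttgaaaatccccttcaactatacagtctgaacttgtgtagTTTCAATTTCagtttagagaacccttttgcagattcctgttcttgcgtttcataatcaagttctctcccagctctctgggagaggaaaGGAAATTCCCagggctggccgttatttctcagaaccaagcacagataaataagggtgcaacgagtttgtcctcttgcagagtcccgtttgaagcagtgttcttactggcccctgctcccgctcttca
Cxcl10: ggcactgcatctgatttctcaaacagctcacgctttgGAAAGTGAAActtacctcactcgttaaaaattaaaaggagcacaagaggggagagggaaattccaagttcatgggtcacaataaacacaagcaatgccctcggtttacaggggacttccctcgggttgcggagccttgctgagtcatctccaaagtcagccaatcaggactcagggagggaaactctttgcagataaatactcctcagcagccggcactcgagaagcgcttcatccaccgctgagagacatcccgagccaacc

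Of 39 genes named by size of change or as a panel, 27 were counted with such a window. Il10, Ifnb1 and Arg1, under the filter, and Cd14 were left out of that count, whether or not they have a window. The windows of Il12b, Irg1, Tnf, Il1b, Lad1, Clec4e, Ptgs2 and Socs3, which also rose, held neither the kappaB nor the ISRE letters. Among all 32851 windows searched, 0.411% held the kappaB letters and 3.44% the ISRE letters. Of the 11810 windows of tested genes, 0.508% and 3.16% held them. The shares were 9.43% (5 of 53 windows) and 15.1% (8) among genes risen at least 16-fold, and 1.98% and 6.22% over the 707 windows of genes risen at least 2-fold. The 5 kappaB windows are those of Cxcl1, Cxcl2, Cxcl3, Il6 and Gbp5. They are shown above for holding these letters, so the 9.43% is no separate support. Cxcl1, Cxcl2 and Cxcl3 lie close together on chromosome 5 with the same letters, so the windows are not independent. Windows of genes fallen at least 2-fold (615) held the letters in 0.813% and 2.44%, and those of genes not called (8880) in 0.372% and 3.00%. A match describes letters in a window and is not a measured binding site.

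Libraries 1, 2 and 3 held 29993426, 37895147 and 33236223 counts in stimulated macrophages, and 29720162, 51275987 and 9296453 in unstimulated ones. A count of 0 therefore allows a level of up to 0.0528 to 0.316 CPM per library (CPM, counts scaled to a common TMM-adjusted library total; the floor is 3 counts and reflects counting error alone), and the shallowest library is the least precise for genes of low level. On principal components of log2 CPM, the 1st (50.2% of variance) separated in vitro LPS from no stimulation in all 18 libraries, while on the 2nd (14.4%) stimulated library 3 (score -55.8) and unstimulated library 1 (-66.6) stood apart. Those libraries had summed CPM of 21229.9 and 24213 over 29 cytosolic ribosomal protein genes, against 9712 to 11669.5 in the other 4. Genes with under 1 kb of exon deviated there by 0.42 and 0.38 log2 units from the mean of the group's other libraries (median of 153 genes), and genes over 6 kb by -0.21 and -0.20 (3138 genes). Unstimulated library 2 deviated the other way (-0.28 and 0.20). One of the outlying libraries is stimulated and one is not, and the part of this difference in the results was not tested beyond fits without them.

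**Figure D1:**
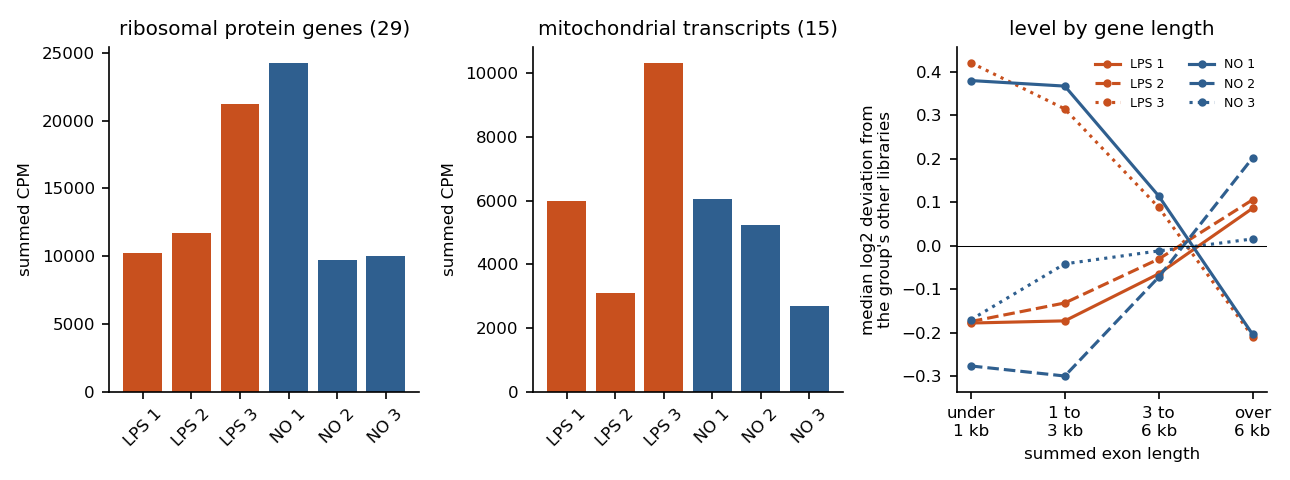
Summed CPM of ribosomal protein genes and of mitochondrially encoded transcripts in each library (bars, 1 library each), and the median log2 deviation of genes from the mean of the group's other libraries by summed exon length (lines). Stimulated library 3 (21229.9 CPM) and unstimulated library 1 (24213 CPM) exceed the other 4 in ribosomal protein genes and in short genes.

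The label of the cells was checked against macrophage markers. The summed level of 10 such markers was 16861, 24128 and 21135 CPM in stimulated libraries and 13745, 22497 and 19789 CPM in unstimulated libraries. Much of the sum came from Lyz2, with 8335, 12103 and 9812 CPM in the stimulated libraries, against 5709, 15428 and 11228 CPM in the unstimulated libraries. All 10 were tested and none was at 0. The calls were 2 rises and 4 falls (1 and 3 in the fit of the 6 libraries alone), and the groups did not overlap for 6 of the 10. Over all tested genes, 22.8% were called and 27.7% did not overlap. Cd14 rose and Mertk and Fcgr1 fell, as given below. Csf1r, the receptor for macrophage colony-stimulating factor, had 2928, 4162 and 4126 CPM with LPS, against 3190.4, 2866 and 3588 CPM without, and the groups overlapped. Markers of 12 other cell types had 56 tested genes, of which 6 rose and 5 fell, beside 22.8% of all tested genes called in either direction, and 1 rise and 3 falls held in every fit that left out 1 library. Ly6g (neutrophils), Vpreb3 (B cells) and Gzma (cytotoxic lymphocytes) had 0 counts in all 6 libraries. The 15 stromal and fibroblast markers summed to 7063, 4406 and 3508 CPM in stimulated libraries and to 4390.3, 2932 and 3098 CPM in unstimulated libraries, so collagen-type transcripts were present in every library. Of 12 tested, 1 rose, against 7 without both outlying libraries, and the part of such cells in the response was not tested. The summed levels of the 16 neutrophil markers were 246, 239 and 221 CPM with LPS and 241, 213 and 250.2 CPM without.

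In vitro LPS changed genes in both directions. Of the 14158 genes that reached 1 CPM in 3 or more of all 18 libraries, 1705 rose (12% of those tested) and 1523 fell (10.8%) at an adjusted p under 0.05 (edgeR's quasi-likelihood test with Benjamini-Hochberg adjustment), 3228 or 22.8% in all. Rises reached further than falls: 904 genes rose at least 2-fold (6.39%) and 677 fell at least 2-fold (4.78%), while 63 rose and 5 fell at least 16-fold. Log2 fold changes are given for stimulated over unstimulated libraries, with ± for the standard error (SE). Their median was 1.04 among genes that rose and -0.92 among those that fell. The CPM of the groups did not overlap for 3919 genes (27.7%), 2787 of them called. All 6 fits that left out 1 library kept 1804 of the calls, 1004 rises and 800 falls. The fit of the 6 libraries alone called 639 rises (4.51%) and 474 falls (3.35%), and 1111 of these 1113 genes (99.8%) were called in the same direction in the fit of all libraries. The 2 fits share these 6 libraries, so this overlap is no separate support. The smaller fit called 34.4% of the 3228 genes. It has fewer residual degrees of freedom and takes its spread from these 6 libraries, while the main fit estimates it over all 18. Quality weights from voom were 0.183 for stimulated library 3, 0.174 and 0.227 for unstimulated libraries 1 and 2, and 0.336 to 5.39 elsewhere. A fit of 4 of the 6, without both outlying libraries and added after seeing the data, called 1250 rises and 1230 falls. Why these counts differ was not tested. The balance of directions depended on the scaling: 1156 rose and 2198 fell without TMM factors, where the median of all genes was -0.13, and 1397 rose and 1913 fell with upper-quartile scaling (median -0.08). Small changes are therefore read relative to the TMM scale.

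**Figure D2:**
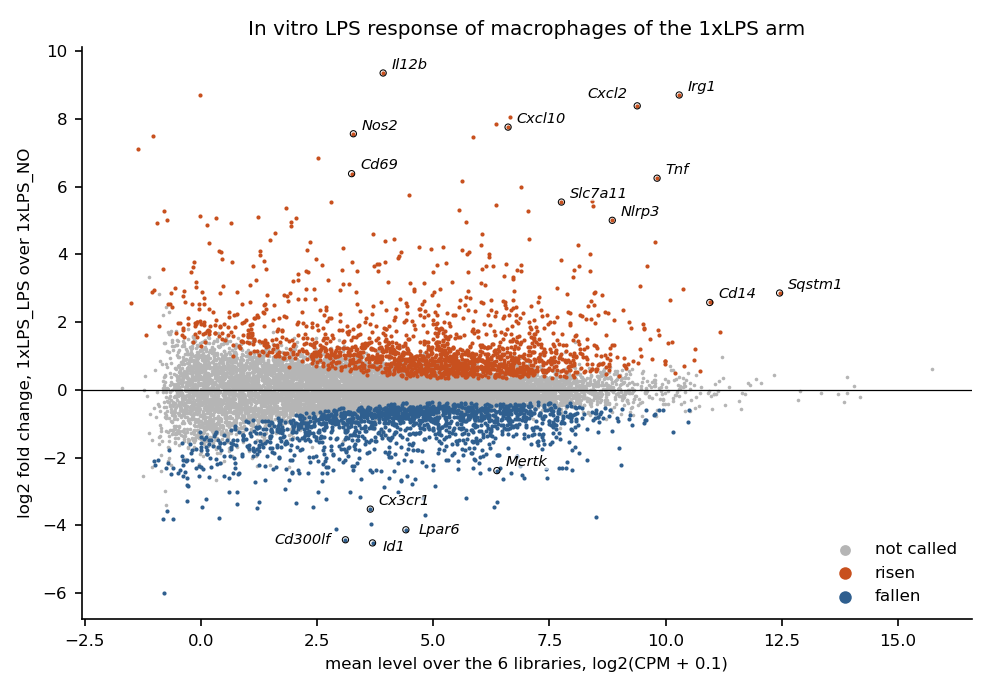
Each point is a tested gene, at its mean level over the 6 libraries (log2 of CPM + 0.1) and its log2 fold change of stimulated over unstimulated macrophages. Points in colour rose (1705) or fell (1523), circled genes are named in the text, and the largest rises exceed the largest falls in size.

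The 15 largest rises among genes whose groups did not overlap included 5 chemokines, 3 cytokines, the antimicrobial enzymes Irg1 and Nos2, the GTPase Gbp5, and Lad1, Cd69, Hcar2 and Clec4e. Il12b, the p40 chain shared by interleukins 12 and 23 (chromosome 11, 44400063 to 44414033, mm10), had 17.3, 63.7 and 9.23 CPM in stimulated macrophages, against 0, 0.0704 and 0 CPM in unstimulated macrophages (log2 fold change 9.35 ± 1.09, adjusted p = 9.0e-06). All 3 stimulated libraries lay far above the unstimulated ones, which held 4 counts in all, so this fold is imprecise. Irg1 (chromosome 14, 103046977 to 103056573), now named Acod1, encodes the enzyme for itaconate, a metabolite toxic to bacteria. It had 2299.7, 3421 and 1784 CPM in the stimulated libraries, against 6.47, 5.61 and 5.903 CPM in the unstimulated libraries (log2 fold change 8.70 ± 0.34, adjusted p = 1.6e-11). Its unstimulated levels lay within a narrow range. Nos2 (chromosome 11, 78920787 to 78960254), the inducible nitric oxide synthase, had 19.3, 26.9 and 11.2 CPM with LPS, against 0.111, 0.08801 and 0.105 CPM without (log2 fold change 7.56 ± 0.56, adjusted p = 1.7e-08). Lad1, a basement membrane anchoring protein, had 9.76, 17.8 and 6.08 CPM in stimulated macrophages, against 0.111, 0.106 and 0 CPM in unstimulated macrophages (log2 fold change 6.83 ± 0.61). Cd69, an early activation antigen, had 20.3, 23.6 and 11.8 CPM in the stimulated libraries, against 0.0739, 0.334 and 0.105 CPM in the unstimulated libraries (log2 6.38 ± 0.52). The unstimulated levels of both genes were near the floor. Hcar2, the niacin and ketone body receptor, rose by 5.76 ± 0.36 log2 units, and Clec4e, the C-type lectin Mincle that binds mycobacterial glycolipid, by 5.59 ± 0.39 log2 units.

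The largest falls, 14 of them shown with the rises in the plot of levels by library, were mostly of genes at moderate level. Id1 (chromosome 2, 152736251 to 152737410), which blocks DNA binding by helix-loop-helix factors and is a target of BMP signalling, had 1.44, 0.901 and 0.879 CPM with LPS, against 44.3, 13.04 and 16.4 CPM without (log2 fold change -4.52 ± 0.41, adjusted p = 2.3e-07). Unstimulated library 1 was the highest, and every stimulated library lay far below the unstimulated ones. Cd300lf, an inhibitory receptor of myeloid cells, had 1.21, 0.845 and 0.183 CPM in stimulated macrophages, against 13.9, 19.5 and 15.5 CPM in unstimulated macrophages (log2 fold change -4.42 ± 0.44, adjusted p = 6.0e-07). Lpar6, a lysophosphatidic acid receptor, had 3.11, 1.92 and 1.83 CPM in the stimulated libraries, against 34.4, 46.96 and 38.8 CPM in the unstimulated libraries (log2 fold change -4.13 ± 0.22, adjusted p = 4.7e-10). The groups of both genes were separated by a wide gap. Arrdc3, an alpha-arrestin, had 1.64, 0.789 and 0 CPM with LPS, against 7.84, 20.4 and 13.8 CPM without (log2 -4.09 ± 0.59). Arhgap19, a GTPase-activating protein, had 13.5, 12.6 and 13.7 CPM in stimulated macrophages, against 73.4, 205 and 159 CPM in unstimulated macrophages (log2 -3.45 ± 0.29). The stimulated levels of Arhgap19 were close to each other. Rhoh (log2 -3.33 ± 0.44), a small G protein without GTPase activity, Tmem37 (log2 -3.30 ± 0.48), a calcium channel gamma-like protein, Nat8l (log2 -3.23 ± 0.42), the N-acetylaspartate synthase, Engase (log2 -3.201 ± 0.34), a cytosolic deglycosylating enzyme, and Rgs2 (log2 -3.19 ± 0.20), a regulator of G protein signalling, fell as well. Ctla2b, a cathepsin inhibitor-like gene, fell by 3.95 on the log2 scale, but copies of nearly the same sequence and an overlapping gene may share its reads.

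**Figure D3:**
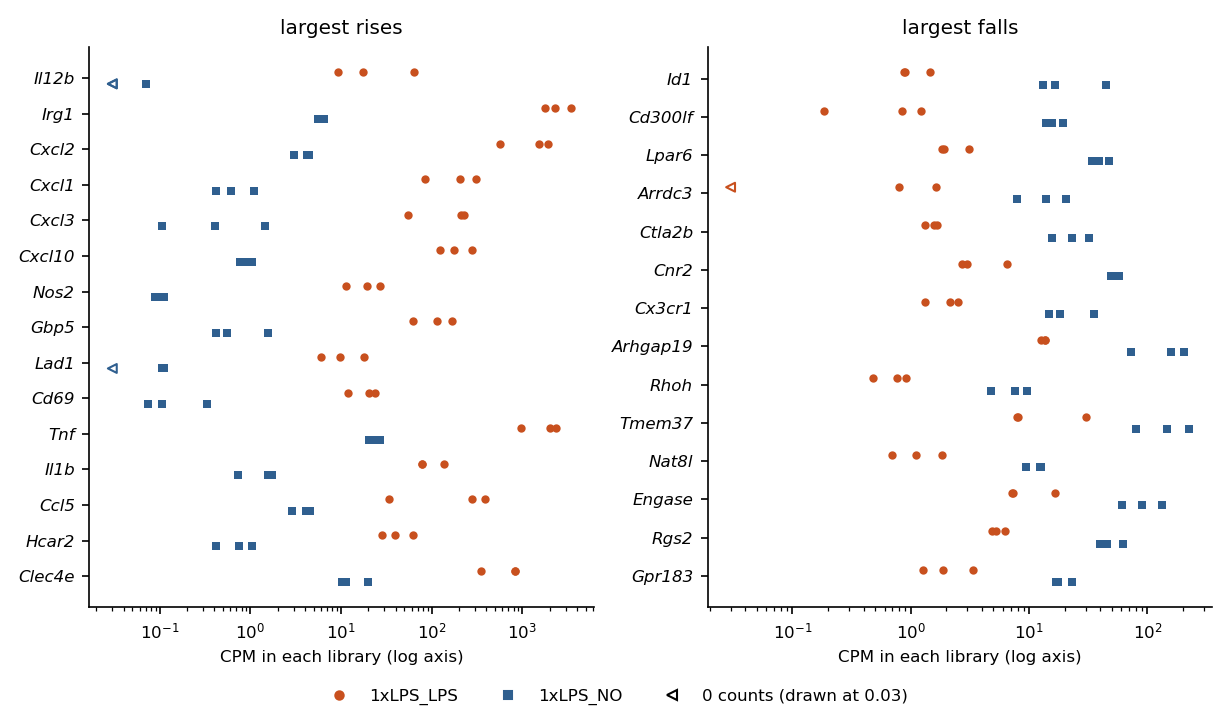
CPM in each library (log axis) of the 15 genes with the largest rises and 14 of the 15 with the largest falls, with 1 point per library and 3 libraries per group. In every row the stimulated and unstimulated groups are separated, as the choice of genes required; open triangles are libraries with 0 counts.

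Genes that sense LPS and pass on the signal rose in part. Of 28 tested members, 15 rose and 1 fell, with a median log2 fold change of 0.52; 8 rose and 1 fell in the fit of the 6 libraries alone, leaving out 1 library gave 2 falls without unstimulated library 2, and 10 of the rises and 1 of the falls were called in every fit that left out 1 library. Cd14, the LPS co-receptor, had 2886, 4119 and 3158 CPM in the stimulated libraries, against 870.0, 348 and 481 CPM in the unstimulated libraries (log2 fold change 2.58 ± 0.33, adjusted p = 1.3e-05). Tlr4 itself had 37.7, 40.8 and 31.9 CPM with LPS, against 21.5, 49.95 and 27.4 CPM without, and the groups overlapped (log2 fold change 0.15 ± 0.23, adjusted p = 0.67). The adaptor Myd88 had 138, 175 and 142 CPM in stimulated macrophages, against 76.6, 70.1 and 83.3 CPM in unstimulated macrophages (log2 0.99 ± 0.14), with exons that overlap another gene. Rises were also called for the ubiquitin ligase Peli1 (log2 2.41 ± 0.16), the TRAF-interacting adaptor Tank (log2 1.84 ± 0.22), the kinase Irak2 (log2 1.47 ± 0.23) and the TAK1-binding Tab2 (log2 0.94 ± 0.14). Irak1 (log2 -0.19 ± 0.14), the kinase Ikbkb (log2 0.14 ± 0.12) and Irf5 (log2 0.15 ± 0.19) were not called.

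Other innate receptors included several strong rises. Of 19 tested members, 10 rose and 3 fell (median 0.66), 7 rose and 0 fell in the fit of the 6 libraries alone, and 8 of the rises and 0 of the falls were called in every fit that left out 1 library, against 0 falls without stimulated library 1 and 1 fall without stimulated library 2 or unstimulated library 2. Tlr2, the receptor for bacterial lipopeptides, had 602, 669 and 806 CPM in the stimulated libraries, against 141, 143 and 139 CPM in the unstimulated libraries (log2 fold change 2.29 ± 0.15, adjusted p = 3.5e-09). Nod2, a cytosolic sensor of muramyl dipeptide, had 74.6, 99.3 and 40.7 CPM with LPS, against 5.58, 5.42 and 4.95 CPM without (log2 3.74 ± 0.28). In both genes each stimulated library exceeded every unstimulated one by several-fold. Nod1 (log2 1.30 ± 0.19) and the RNA sensor Ifih1 (log2 2.44 ± 0.28) rose too, while Tlr7 (log2 0.041 ± 0.19), the DNA-signalling adaptor Tmem173 (log2 0.047 ± 0.22) and the chaperone Unc93b1 (log2 0.060 ± 0.18) were not called.

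Most genes of NF-kappaB subunits and their inhibitors rose. Of 15 tested members, 13 rose and 0 fell, and all 13 rises were called in every fit that left out 1 library and in the fit of the 6 libraries alone; there was 1 fall without unstimulated library 1. The median log2 fold change was 1.97, beside -0.00076 over all tested genes. Nfkbia, the inhibitor that holds NF-kappaB in the cytoplasm, had 682, 691 and 769 CPM in stimulated macrophages, against 172, 106 and 168 CPM in unstimulated macrophages (log2 fold change 2.27 ± 0.18, adjusted p = 4.5e-08). Nfkbie, another such inhibitor, had 337, 402 and 338 CPM in the stimulated libraries, against 45.7, 38.7 and 48.4 CPM in the unstimulated libraries (log2 3.02 ± 0.15). Tnfaip3, the ubiquitin-editing enzyme A20, had 579, 602 and 269 CPM with LPS, against 26.6, 49.6 and 49.8 CPM without (log2 3.53 ± 0.30). Stimulated library 3 was the lowest of its group for Tnfaip3 and the groups stayed apart. The subunits Nfkb2 (log2 2.20 ± 0.16, with overlapping exons of another gene) and Relb (log2 1.94 ± 0.15) and the A20-binding Tnip1 (log2 2.36 ± 0.18) rose. Nfkbid (log2 0.12 ± 0.44) and Tnip2 (log2 -0.35 ± 0.18) were not called.

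Most of the tested cytokine genes rose. Of 23 tested members, 15 rose and 1 fell, with a median log2 fold change of 2.87; 12 rose and 1 fell in the fit of the 6 libraries alone, and there were 2 falls without stimulated library 1 or unstimulated library 2. Tnf, tumour necrosis factor (chromosome 17, 35199381 to 35202007), had 2334, 2031 and 973 CPM in stimulated macrophages, against 27.2, 20.1 and 22.98 CPM in unstimulated macrophages (log2 fold change 6.25 ± 0.33, adjusted p = 4.7e-10). Il1b, the fever-inducing interleukin 1 beta (chromosome 2, 129364570 to 129371139), had 77.5, 136 and 77.6 CPM in the stimulated libraries, against 0.739, 1.74 and 1.58 CPM in the unstimulated libraries (log2 fold change 6.15 ± 0.54, adjusted p = 1.4e-07). Tnf was thus the more abundant in reads in every library, and stimulated library 3 was the lowest of its group for it. Il6, an inducer of the acute phase, had 2.52, 3.13 and 0.1099 CPM with LPS, against 0, 0.08801 and 0.105 CPM without (log2 fold change 4.87 ± 1.09, adjusted p = 0.0031). Stimulated library 3 held 3 counts, close in CPM to unstimulated libraries 2 and 3 (5 and 1 counts), so the rise rests on stimulated libraries 1 and 2. The T cell-directing Il27 (log2 fold change 5.56 ± 0.62) and the costimulatory ligand Tnfsf9 (log2 4.59 ± 0.29) rose, both with exons that overlap another gene. Vegfa, a growth factor for blood vessels, was the cytokine list's fall, with 75.9, 69.1 and 58.6 CPM in stimulated macrophages, against 163, 166 and 211 CPM in unstimulated macrophages (log2 fold change -1.41 ± 0.18, adjusted p = 1.6e-05). Csf1 (log2 0.66 ± 0.29), Tgfb1 (log2 0.24 ± 0.25) and Inhba (log2 -0.96 ± 0.38) were not called. Csf2, a myeloid growth factor, had 0 counts in all unstimulated libraries and was at least 18.7-fold higher in stimulated ones (against a floor of 3 counts over the group). Under the filter, the anti-inflammatory Il10 had 7, 27 and 12 counts with LPS and 27, 28 and 3 without. Ifnb1, interferon beta, had 0, 5 and 1 counts with LPS and 0, 0 and 0 without, and no fold is given.

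The chemokine list had its largest rises among attractants of neutrophils and T cells. Of 18 tested members, 15 rose and 1 fell, with a median of 3.69, and 15 of the rises and 1 of the falls were called in every fit that left out 1 library; there were 2 falls without stimulated library 1. Cxcl2, which attracts neutrophils (chromosome 5, 90903871 to 90905938), had 1922, 1518 and 570.0 CPM in the stimulated libraries, against 4.18, 4.45 and 3.06 CPM in the unstimulated libraries (log2 fold change 8.38 ± 0.50, adjusted p = 1.6e-09), but near-identical copies could share its reads, as for Cxcl3 (log2 7.84 ± 0.74). Cxcl1, another neutrophil attractant (chromosome 5, 90891241 to 90893115), had 312, 204 and 84.96 CPM with LPS, against 1.11, 0.616 and 0.422 CPM without (log2 fold change 8.05 ± 0.60, adjusted p = 1.9e-08). Cxcl10, which attracts T cells and is also induced by interferons (chromosome 5, 92346638 to 92348889), had 178, 282 and 123 CPM in stimulated macrophages, against 1.03, 0.774 and 0.949 CPM in unstimulated macrophages (log2 fold change 7.76 ± 0.40, adjusted p = 4.7e-10). In these 3 genes stimulated library 3 was the lowest of its group, and all remained far above the unstimulated range. Ccl5, a T cell attractant, had 279.8, 388 and 33.6 CPM in the stimulated libraries, against 4.07, 2.89 and 4.53 CPM in the unstimulated libraries (log2 fold change 5.98 ± 0.73, adjusted p = 7.3e-06), so stimulated library 3 was far below the other stimulated libraries. Ccl3 (log2 5.43 ± 0.33) and Ccl4 (log2 5.27 ± 0.31), which attract monocytes and T cells, and Ccl9 (log2 2.61 ± 0.21) rose. Ccl6 (log2 0.27 ± 0.24) and the stromal chemokine Cxcl12 (log2 -0.30 ± 0.24) were not called.

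Some antiviral genes of the interferon response rose strongly. Of 39 tested members, 16 rose and 3 fell (median 0.53); 13 rose and 1 fell in the fit of the 6 libraries alone, leaving out 1 library gave 1 fall without stimulated library 1, stimulated library 3 or unstimulated library 3, and 13 of the rises and 1 of the falls were called in every fit that left out 1 library. Rsad2, the antiviral enzyme viperin, had 88.1, 134 and 51.8 CPM with LPS, against 1.996, 2.75 and 2.003 CPM without (log2 fold change 5.30 ± 0.43, adjusted p = 5.1e-08). Ifit1, which binds foreign RNA, had 52.1, 76.9 and 45.7 CPM in stimulated macrophages, against 3.07, 3.31 and 3.48 CPM in unstimulated macrophages (log2 4.16 ± 0.32). Stimulated library 3 was the lowest of its group for both, and the groups did not overlap. Ifi205 (log2 4.18 ± 0.51), Cmpk2 (log2 4.21 ± 0.51) and Oasl1 (log2 3.55 ± 0.44) rose, as did the ubiquitin-like Isg15 (log2 3.15 ± 0.39), whose reads may be shared with copies. Bst2 (log2 -0.31 ± 0.20), Ifitm3 (log2 0.55 ± 0.25), Samhd1 (log2 0.035 ± 0.14) and Trim25 (log2 -0.26 ± 0.23) were not called.

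Guanylate-binding proteins and immunity-related GTPases, which attack the vacuoles of intracellular microbes, had a median of 3.56. Of 13 tested members, 10 rose and 0 fell, and 8 of the rises and 0 of the falls were called in every fit that left out 1 library. Gbp5, a promoter of inflammasome assembly (chromosome 3, 142493978 to 142522344), had 115, 166 and 62.4 CPM in the stimulated libraries, against 0.554, 0.422 and 1.58 CPM in the unstimulated libraries (log2 fold change 7.46 ± 0.48, adjusted p = 2.6e-09). Gbp2 had 107, 154 and 40.9 CPM with LPS, against 2.59, 3.82 and 3.27 CPM without (log2 4.95 ± 0.41). Both genes were lowest in stimulated library 3 and did not overlap between groups. Gbp3 rose by 3.73 ± 0.40 log2 units, while Irgm1 (log2 0.36 ± 0.16) and Gbp9 (log2 -0.62 ± 0.41) were not called. In the fit of the 6 libraries alone, 7 of the list rose.

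Genes that restrain the response changed in both directions. Of 28 tested members, 14 rose and 4 fell (median 0.73), and 14 of the rises and 4 of the falls were called in every fit that left out 1 library. Socs3, an inhibitor of cytokine receptor signalling (chromosome 11, 117966079 to 117970047), had 188, 213 and 176 CPM in stimulated macrophages, against 22.5, 12.3 and 22.98 CPM in unstimulated macrophages (log2 fold change 3.33 ± 0.23, adjusted p = 8.4e-09). Irak3, a kinase-like inhibitor of MyD88 signalling known for its part in endotoxin tolerance, had 91.8, 127 and 107 CPM in the stimulated libraries, against 27.2, 31.6 and 25.3 CPM in the unstimulated libraries (log2 fold change 1.95 ± 0.17, adjusted p = 1.7e-07). Both genes were well separated between groups. Zc3h12c, of the family of RNA-degrading regnases (log2 3.91 ± 0.35), the phosphatase Dusp2 (log2 2.67 ± 0.24) and the pseudokinase Trib3 (log2 2.41 ± 0.20) rose. Inpp5d, the lipid phosphatase SHIP1, fell, with 68.6, 74.9 and 103 CPM with LPS, against 441, 379 and 445 CPM without (log2 fold change -2.36 ± 0.18, adjusted p = 3.0e-08). Atf3 (log2 0.32 ± 0.16), Trib1 (log2 0.27 ± 0.22) and Tollip (log2 0.26 ± 0.12) were not called.

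Among AP-1 and immediate early factors, some had lower and others higher levels with LPS. Of 30 tested members, 11 rose and 5 fell (median 0.21); 6 rose and 4 fell in the fit of the 6 libraries alone, leaving out 1 library gave 9 falls without unstimulated library 2, and 9 of the rises and 4 of the falls were called in every fit that left out 1 library. Fos, a classic early AP-1 subunit, had 37.98, 40.8 and 57.6 CPM in stimulated macrophages, against 194, 143 and 192 CPM in unstimulated macrophages (log2 fold change -1.95 ± 0.23, adjusted p = 4.4e-06). Maff, a small Maf factor, had 82.8, 84.2 and 60.8 CPM in the stimulated libraries, against 11.6, 5.61 and 8.12 CPM in the unstimulated libraries (log2 fold change 3.18 ± 0.27, adjusted p = 8.3e-08). Their groups were separated in opposite directions. Batf (log2 1.82 ± 0.31), Mafg (log2 1.43 ± 0.18) and Cebpd (log2 2.67 ± 0.32, with overlapping exons) rose. Fosl2 (log2 0.082 ± 0.16), Klf4 (log2 -0.45 ± 0.21) and Hif1a (log2 0.38 ± 0.20) were not called.

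Beside Irg1 and Nos2, enzymes of arginine and tetrahydrobiopterin metabolism rose in part. Of 11 tested members, 5 rose and 1 fell, 5 of the rises and 0 of the falls were called in every fit that left out 1 library, and the median was -0.057, but 0.12 to 0.56 without stimulated library 1 or 2 or unstimulated library 1 or 2; there were 0 falls without stimulated library 2 and 2 falls without stimulated library 3, unstimulated library 1 or unstimulated library 2. Gch1, which makes the cofactor of nitric oxide synthase, had 73.5, 92.2 and 52.1 CPM with LPS, against 14.1, 16.1 and 17.2 CPM without (log2 fold change 2.21 ± 0.22, adjusted p = 4.9e-07). The arginine transporter Slc7a2 (log2 1.77 ± 0.32) and the mitochondrial arginase Arg2 (log2 1.27 ± 0.22, with overlapping exons) rose. Arg1, the cytosolic arginase of alternatively activated macrophages, stayed under the filter with 4, 0 and 5 counts with LPS and 19, 13 and 8 without.

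Of the inflammasome genes, 6 of 18 tested rose and 3 fell (median 0.21), against 5 falls without stimulated library 3 or unstimulated library 1. Nlrp3, the sensor of a caspase-1 activating complex, had 913, 1202 and 574 CPM in stimulated macrophages, against 21.6, 32.8 and 29.3 CPM in unstimulated macrophages (log2 fold change 5.01 ± 0.28, adjusted p = 6.1e-10). Casp4 (the mouse caspase-11 gene, a receptor of cytosolic LPS) had 52.1, 50.2 and 61.96 CPM in the stimulated libraries, against 7.02, 10.1 and 6.22 CPM in the unstimulated libraries (log2 fold change 2.79 ± 0.18, adjusted p = 2.4e-09). Every stimulated library exceeded every unstimulated one for both. Casp1 (log2 1.42 ± 0.17) and Mefv (log2 2.29 ± 0.30) rose, while Nlrp1b (log2 -3.02 ± 0.38) and the ATP-gated channel P2rx7 (log2 -1.51 ± 0.19), which triggers Nlrp3, fell. Of the enzymes and receptors of prostaglandins and leukotrienes, 4 of 17 tested rose and 2 fell (median -0.21), against 4 falls without unstimulated library 1 and 6 falls without stimulated library 3. Ptgs2, the inducible cyclooxygenase (chromosome 1, 150100031 to 150108227), had 192, 250.3 and 87.2 CPM with LPS, against 18.04, 13.2 and 8.64 CPM without (log2 fold change 3.71 ± 0.48, adjusted p = 1.4e-05). Ptgs1, the constitutive enzyme, had 3.99, 6.31 and 10.5 CPM in stimulated macrophages, against 20.1, 17.1 and 21.7 CPM in unstimulated macrophages (log2 -1.50 ± 0.26). The pair thus moved in opposite directions, each without overlap. Ptges (log2 3.65 ± 0.35), which makes prostaglandin E, the phospholipase Pla2g4a (log2 1.43 ± 0.18) and the prostacyclin receptor Ptgir (log2 2.62 ± 0.17) rose.

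Many genes of the antioxidant response are targets of Nrf2. Of 21 tested members, 12 rose and 2 fell (median 0.81); 8 rose and 1 fell in the fit of the 6 libraries alone; 10 of the rises and 1 of the falls were called in every fit that left out 1 library, against 1 fall without stimulated library 2 or unstimulated library 1. Slc7a11, the cystine importer, had 525, 507 and 239.8 CPM in the stimulated libraries, against 8.796, 10.9 and 7.17 CPM in the unstimulated libraries (log2 fold change 5.54 ± 0.33, adjusted p = 1.5e-09). Sqstm1, the autophagy receptor p62, had 9269, 10451 and 9842 CPM with LPS, against 1629, 1096 and 1349 CPM without (log2 fold change 2.86 ± 0.18), though its exons overlap another gene. The thioredoxin reductase Txnrd1 (log2 2.64 ± 0.25), Sod2 (log2 2.49 ± 0.25) and Srxn1 (log2 2.01 ± 0.14) rose, whereas Cat (log2 0.020 ± 0.14) and Gpx1 (log2 -0.46 ± 0.19) were not called. Unfolded protein and amino acid response genes gave 9 rises and 0 falls of 23 tested (median 0.48), and 14 rises without both outlying libraries. All 9 rises were called in every fit that left out 1 library and in the fit of the 6 libraries alone, against 1 fall without stimulated library 3 or unstimulated library 1. Chac1, which degrades glutathione, had 82.6, 97.1 and 116 CPM in stimulated macrophages, against 15.9, 4.24 and 5.903 CPM in unstimulated macrophages (log2 fold change 3.49 ± 0.36, adjusted p = 9.9e-07). Atf4, a transcription factor of this response, rose by 1.51 ± 0.14 log2 units and the asparagine synthetase Asns by 1.59 ± 0.18 log2 units. The chaperones Hspa5 (log2 0.36 ± 0.16) and Hsp90b1 (log2 -0.10 ± 0.22) were not called.

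Several surface molecules that engage lymphocytes rose, and the 2 antigen presentation lists had smaller medians. Of all tested genes 22.8% were called, a larger share than in the class II list. In the costimulatory list, of 17 tested members 10 rose and 1 fell (median 1.65), and 9 of the rises and 1 of the falls were called in every fit that left out 1 library. Cd40, the receptor for T cell help, had 154, 236 and 89.2 CPM in the stimulated libraries, against 4.62, 2.904 and 3.48 CPM in the unstimulated libraries (log2 fold change 5.45 ± 0.38, adjusted p = 8.1e-09). Icosl rose by 4.12 ± 0.26 log2 units, Cd83 by 2.56 ± 0.20 log2 units and the adhesion molecule Vcam1 by 3.47 ± 0.23 log2 units. Cd86 (log2 0.14 ± 0.26) was not called, and its groups overlapped. Of 20 tested genes of MHC class I processing, 9 rose and 0 fell (median 0.44), but 1 rose in the fit of the 6 libraries alone, against 4 rises without stimulated library 2 and 1 fall without stimulated library 3. Of 11 tested class II genes, 0 rose and 1 fell (median -0.25, and 0.076 without stimulated library 1), against 0 falls without stimulated library 1, stimulated library 2 or unstimulated library 3, 2 falls without unstimulated library 1 or unstimulated library 2 and 3 falls without stimulated library 3. Cd74, the invariant chain, had 473, 1028 and 1654 CPM with LPS, against 981, 833 and 1169 CPM without (log2 0.081 ± 0.32), and the groups overlapped.

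**Figure D4:**
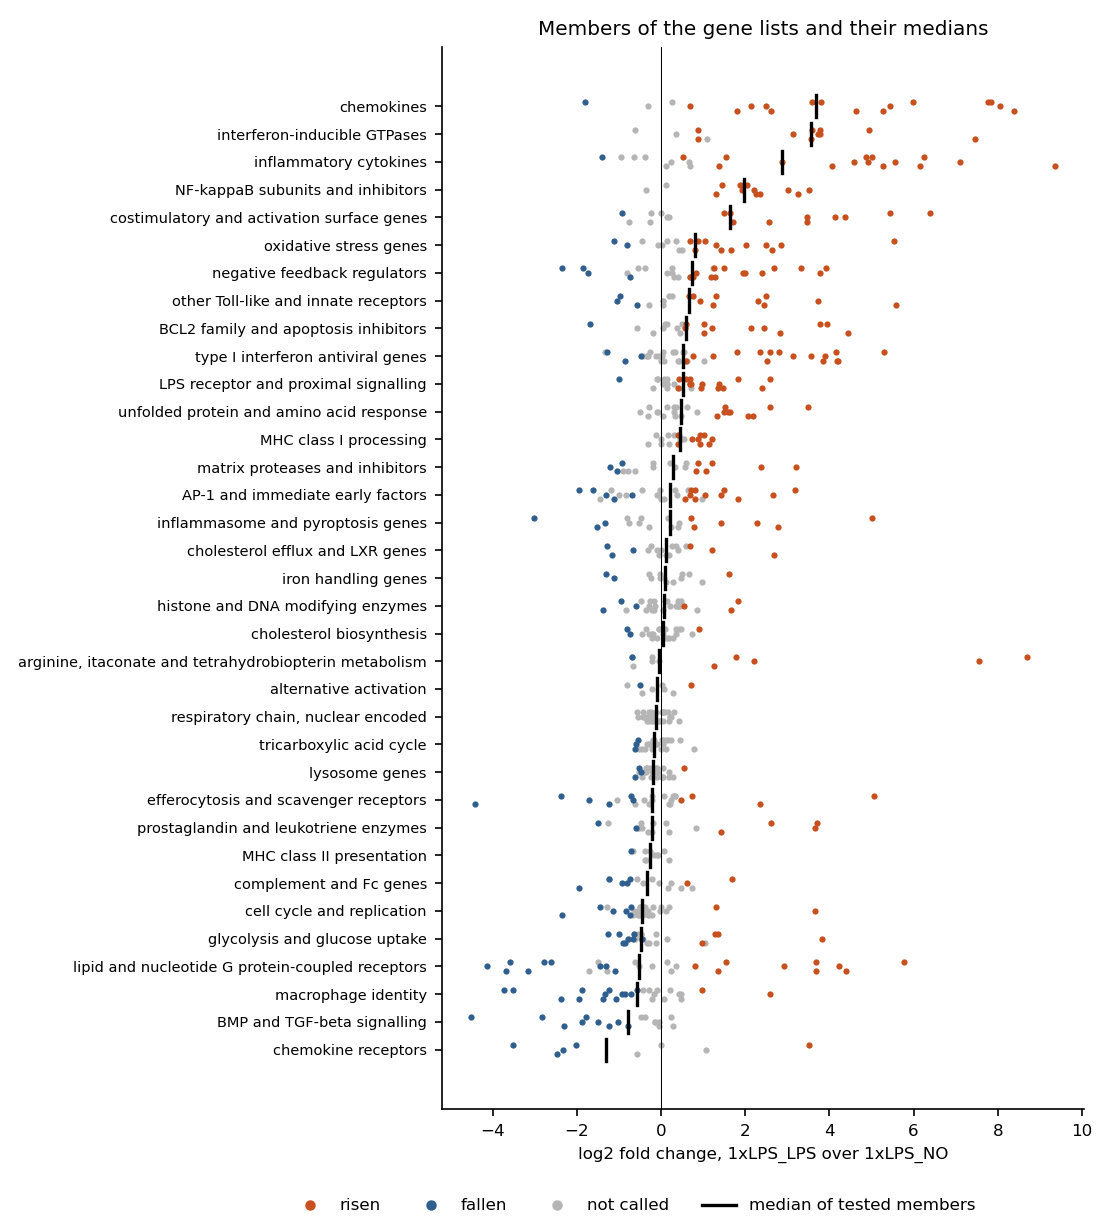
Log2 fold change, stimulated over unstimulated, of the tested members of 35 gene lists, ordered by their median (black bar). Chemokines (3.69), interferon-inducible GTPases (3.56) and cytokines (2.87) lie at the top with all libraries in the fit (without unstimulated library 2 they were 3.37, 3.96 and 3.85), and BMP and TGF-beta signalling (-0.77) and chemokine receptors (-1.30) at the bottom.

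Several genes of the resting macrophage fell. In the list of macrophage identity, of 25 tested members 2 rose and 13 fell (median -0.56); 1 rose and 7 fell in the fit of the 6 libraries alone, leaving out 1 library gave 8 falls without stimulated library 1, and 2 of the rises and 8 of the falls were called in every fit that left out 1 library. The transcription factor Cebpa had 99.6, 119.6 and 142 CPM in stimulated macrophages, against 493, 337 and 487 CPM in unstimulated macrophages (log2 fold change -1.87 ± 0.18, adjusted p = 3.1e-07). Irf8, a lineage factor, had 83.8, 105 and 145 CPM in the stimulated libraries, against 318, 247 and 305 CPM in the unstimulated libraries (log2 -1.38 ± 0.17). Mertk, a receptor for the uptake of apoptotic cells, had 17.5, 23.3 and 38.9 CPM with LPS, against 120.1, 151 and 145 CPM without (log2 fold change -2.38 ± 0.22, adjusted p = 2.0e-07). In each of these genes all 3 stimulated libraries lay below all unstimulated ones. Fcgr1, the high-affinity IgG receptor, fell by 1.94 on the log2 scale (SE 0.30). Cd68 (log2 -0.20 ± 0.22), Mpeg1 (log2 0.074 ± 0.19) and Lyz2 (log2 -0.098 ± 0.26, copies possible) were not called. Of 8 tested chemokine receptors, 1 rose and 4 fell (median -1.30), against 2 rises without unstimulated library 2. Cx3cr1, the fractalkine receptor (chromosome 9, 119901616 to 120069879), had 2.16, 1.32 and 2.53 CPM in stimulated macrophages, against 35.5, 14.8 and 18.1 CPM in unstimulated macrophages (log2 fold change -3.52 ± 0.38, adjusted p = 1.4e-06). Cxcr4, the receptor of Cxcl12, had 59.6, 58.1 and 53.5 CPM in the stimulated libraries, against 175, 319 and 366 CPM in the unstimulated libraries (log2 fold change -2.33 ± 0.25, adjusted p = 1.2e-06). Ccrl2, an atypical chemerin receptor, went the other way (log2 3.52 ± 0.21), and Cxcr3 fell (log2 -2.46 ± 0.48). Ccr1 (log2 -0.0066 ± 0.26) was not called.

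Receptors for lipids and nucleotides split evenly. Of 27 tested members, 9 rose and 9 fell (median -0.51), and all 18 calls held in every fit that left out 1 library, against 7 rises and 7 falls in the fit of the 6 libraries alone. Gpr84, a receptor for medium-chain fatty acids, had 177, 249 and 235 CPM with LPS, against 27.5, 8.84 and 14.9 CPM without (log2 3.69 ± 0.32), with exons that overlap another gene. Gpr132 rose by 2.93 ± 0.16 log2 units and the formyl peptide receptor Fpr1 by 4.22 ± 0.41 log2 units. Against these stood the cannabinoid receptor Cnr2, with 2.68, 3.01 and 6.52 CPM in stimulated macrophages, against 49.3, 49.04 and 57.8 CPM in unstimulated macrophages (log2 fold change -3.68 ± 0.32, adjusted p = 1.4e-07). Gpr183, the oxysterol receptor, fell too (log2 -3.15 ± 0.35), as did Lpar6 above. S1pr2 (log2 0.14 ± 0.20), C3ar1 (log2 -0.22 ± 0.19) and C5ar1 (log2 0.23 ± 0.28) were not called.

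Genes of BMP and TGF-beta signalling fell without a rise. Of 17 tested members, 0 rose and 9 fell (median -0.77); all 9 falls were called in every fit that left out 1 library, and 8 in the fit of the 6 libraries alone. Id3 had 97.8, 64.4 and 73.2 CPM in the stimulated libraries, against 469.6, 267 and 427 CPM in the unstimulated libraries (log2 fold change -2.30 ± 0.22, adjusted p = 4.7e-07). Smad6, an inhibitor of BMP signalling and itself a target of the pathway, had 9.86, 6.34 and 8.09 CPM with LPS, against 79.1, 36.1 and 57.1 CPM without (log2 fold change -2.83 ± 0.27, adjusted p = 4.3e-07). As with Id1, the groups did not overlap and unstimulated library 1 was the highest. Smad7 (log2 -1.87 ± 0.19), Id2 (log2 -1.02 ± 0.14) and the repressor Ski (log2 -1.49 ± 0.14) fell, while Acvrl1 (log2 -0.037 ± 0.30), Tgfbr1 (log2 -0.48 ± 0.20) and Skil (log2 -0.14 ± 0.24) were not called. Of 23 tested receptors of efferocytosis and scavenging, 4 rose and 6 fell (median -0.21; 2 rose and 4 fell in the fit of the 6 libraries alone). Olr1, a receptor for oxidised lipoprotein, had 10.1, 8.17 and 5.42 CPM in stimulated macrophages, against 0.296, 0.229 and 0.105 CPM in unstimulated macrophages (log2 5.06 ± 0.36). Stab1, a scavenger receptor of resident macrophages, had 572, 693 and 790.3 CPM in the stimulated libraries, against 1478, 1494 and 1864 CPM in the unstimulated libraries (log2 -1.23 ± 0.17). Marco rose (log2 2.36 ± 0.51), and Axl (log2 0.33 ± 0.24) and Mrc1 (log2 -0.21 ± 0.20) were not called.

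Glucose metabolism genes were mixed. Of all tested genes 22.8% were called, a larger share than in the tricarboxylic acid, respiratory chain and lysosome lists that follow. Of 26 tested members, 4 rose and 8 fell (median -0.48); 4 rose and 2 fell in the fit of the 6 libraries alone. The glucose transporters Slc2a6 and Slc2a1 rose, Slc2a6 with 355, 538 and 307 CPM with LPS, against 37.1, 17.7 and 29.8 CPM without (log2 fold change 3.83 ± 0.34, adjusted p = 1.4e-07) and Slc2a1 by 1.37 ± 0.20 log2 units. Pfkp (log2 0.98 ± 0.15) rose and Pfkfb3 (log2 -0.995 ± 0.13) fell. Gapdh had 719.8, 1026 and 1732 CPM in stimulated macrophages, against 3412, 1022 and 881 CPM in unstimulated macrophages (log2 -0.61 ± 0.39), and unstimulated library 1 alone stood far above the others. Of 26 tested genes of the tricarboxylic acid cycle, 0 rose and 3 fell (median -0.17, and 0.045 without unstimulated library 1), against 1 rise without unstimulated library 1 or unstimulated library 2, 1 fall without stimulated library 2 or unstimulated library 3 and 6 falls without stimulated library 3. Of 31 tested nuclear genes of the respiratory chain none was called (edgeR; median -0.12, 0.11 without unstimulated library 1 and -0.39 without stimulated library 3), against 2 falls without unstimulated library 2 and 5 falls without stimulated library 3. For lysosome genes, 1 of 30 rose and 3 fell (median -0.19), but there were 0 rises without stimulated library 2, unstimulated library 1 or unstimulated library 3, 2 rises without unstimulated library 2, 0 falls without stimulated library 1, stimulated library 2 or unstimulated library 3 and 13 falls without stimulated library 3, and without both outlying libraries 0 rose and 17 fell.

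Cell cycle genes moved in both directions. Of 32 tested members, 2 rose and 6 fell, beside 12% and 10.8% of all tested genes (median -0.45); 2 rose and 3 fell in the fit of the 6 libraries alone, and there were 10 falls without unstimulated library 2 and 11 falls without stimulated library 1. Cdkn1a, the cell cycle inhibitor p21, had 1123, 1834 and 1374 CPM in the stimulated libraries, against 142, 88.6 and 112 CPM in the unstimulated libraries (log2 fold change 3.66 ± 0.23, adjusted p = 2.4e-09). E2f2, a transcription factor of S phase, had 2.75, 2.03 and 4.65 CPM with LPS, against 17.3, 12.6 and 18.4 CPM without (log2 fold change -2.36 ± 0.24, adjusted p = 8.4e-07). The replication helicase gene Mcm2 fell (log2 -1.13 ± 0.21) and Mki67 rose (log2 1.30 ± 0.19), while Pcna (log2 0.0055 ± 0.21, copies possible) was not called. The list of the BCL2 family and apoptosis inhibitors, which holds survival and death genes, gave 11 rises and 1 fall of 20 tested (median 0.59). In the fit of the 6 libraries alone 6 rose and 1 fell. There were 7 rises without stimulated library 1 or stimulated library 2 and 2 falls without stimulated library 3 or unstimulated library 2. The rises were of both kinds. The death genes Bid (log2 0.57 ± 0.16) and Pmaip1 (log2 1.02 ± 0.31) were among them, with overlapping groups. Birc3, an inhibitor of apoptosis, rose by 2.44 ± 0.17 log2 units, and the death receptor Fas had 34.6, 41.3 and 31.5 CPM in stimulated macrophages, against 1.48, 3.08 and 2.21 CPM in unstimulated macrophages (log2 3.95 ± 0.27). Bmf, a BH3-only death gene, fell (log2 -1.69 ± 0.21). Among matrix proteases and inhibitors, 6 of 18 rose and 3 fell (median 0.28; 3 rose and 0 fell in the fit of the 6 libraries alone), including the collagenase Mmp13 (log2 2.38 ± 0.41) and the aggrecanase Adamts4 (log2 3.199 ± 0.46), which rose. Of 26 tested histone and DNA modifying enzymes, 3 rose and 3 fell, a share near that of all tested genes (22.8%), against 7 rises without stimulated library 3 or unstimulated library 2; the demethylase Kdm6b rose (log2 1.83 ± 0.28) and the maintenance methyltransferase Dnmt1 fell, with 64.2, 56.8 and 55.6 CPM in the stimulated libraries, against 139.5, 143 and 174 CPM in the unstimulated libraries (log2 fold change -1.37 ± 0.15, adjusted p = 2.0e-06).

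The counts of most of the remaining lists moved when single libraries were left out, and they are given beside the 22.8% of all tested genes called in either direction. Iron handling genes gave 1 rise and 2 falls of 14 tested, against 2 rises without unstimulated library 1 or unstimulated library 2, 3 rises without stimulated library 3 and 1 fall without stimulated library 1 or stimulated library 2; the iron importer Slc11a2 rose (log2 1.62 ± 0.13, adjusted p = 3.7e-08) and ferritin Fth1 had 0.13 ± 0.21. Cholesterol biosynthesis gave 1 rise and 2 falls of 23 tested, against 3 rises without stimulated library 3 or unstimulated library 2, 0 falls without stimulated library 2 and 1 fall without stimulated library 1, unstimulated library 1 or unstimulated library 3. Efflux and LXR genes gave 3 rises and 3 falls of 17 tested, against 3 rises and 5 falls without both outlying libraries, and their medians, like those of iron handling, cholesterol synthesis and histone modifying genes, changed sign without TMM factors and without some single libraries. Ch25h, which makes an oxysterol, rose (log2 2.68 ± 0.44, overlapping exons), as did the lipoprotein lipase Lpl, with 1739.8, 2213 and 2725 CPM with LPS, against 1076, 854 and 952 CPM without (log2 1.21 ± 0.24). The carrier protein Apoe had 9651, 15541 and 26915 CPM in stimulated macrophages, against 10086, 13312 and 16256 CPM in unstimulated macrophages (log2 0.39 ± 0.31), and the groups overlapped. Complement and Fc genes gave 2 rises and 5 falls of 16 tested, against 1 rise without stimulated library 1, stimulated library 2 or unstimulated library 3, 1 fall without stimulated library 1 or stimulated library 2, 2 falls without unstimulated library 1 and 3 falls without unstimulated library 3; complement C3 rose (log2 1.69 ± 0.28). Alternative activation genes gave 1 rise and 1 fall of 8 tested, against 0 falls without stimulated library 2, unstimulated library 1 or unstimulated library 3 and 2 falls without unstimulated library 2. The mitochondrially encoded transcripts summed to 5988, 3104 and 10308 CPM with LPS and 6048, 5219 and 2689.7 CPM without, and their 3 calls of 15 were not kept, against 0 rises without stimulated library 3, unstimulated library 1 or unstimulated library 3, 1 rise without stimulated library 1, 7 rises without unstimulated library 2 and 9 rises without stimulated library 2.

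Among the 10 called genes of largest spread within groups were Ccl5 and Cxcl3, described above, and 8 others. Mx1, an antiviral GTPase, had 9.82, 19.3 and 1.21 CPM in the stimulated libraries, against 0.0739, 0.757 and 1.69 CPM in the unstimulated libraries (log2 fold change 3.85 ± 0.86, adjusted p = 0.0031), so stimulated library 3 lay inside the unstimulated range, and reads may be shared with copies. Ifit2, another antiviral gene, had 33.95, 52.1 and 19.9 CPM with LPS, against 0.3696, 3.73 and 3.06 CPM without (log2 fold change 3.89 ± 0.54, adjusted p = 3.2e-05). Cers6, a ceramide synthase, had 213, 316 and 76.8 CPM in stimulated macrophages, against 16.3, 68.1 and 40.7 CPM in unstimulated macrophages (log2 fold change 2.27 ± 0.44, adjusted p = 9.4e-04). In all 3 genes stimulated library 3 was the lowest of its group. The axon guidance receptor Robo1 had 15.5, 11.2 and 1.87 CPM in the stimulated libraries, against 1.81, 3.84 and 3.58 CPM in the unstimulated libraries (log2 fold change 1.64 ± 0.48), and the groups overlapped. It was not called without stimulated library 1 (adjusted p = 0.12), stimulated library 2 (0.063) or unstimulated library 1 (0.069). Nrgn, a calmodulin-binding protein, had 1.54, 1.72 and 2.93 CPM with LPS, against 14.6, 1.88 and 3.90 CPM without; without unstimulated library 1 its fall was not called (adjusted p = 0.55), nor without stimulated library 1 (0.11) or 2 (0.12). Spaca6 (log2 1.52 ± 0.48), a sperm protein, Syne2 (log2 1.78 ± 0.46), which links the nucleus to actin, and Gdap10 (log2 1.38 ± 0.45) were called as well. The calls of Spaca6 and Gdap10 were lost without stimulated library 1 (adjusted p = 0.16 and 0.13) or 2 (0.082 and 0.16) and without unstimulated library 1 (0.096 and 0.12) or 3 (0.06 and 0.10), and that of Syne2 without stimulated library 2 (0.095).

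The last question was whether macrophages of the 1xLPS arm respond differently from those of the other arms. No gene was called for the difference of the 1xLPS and PBS responses (0% of 14158; edgeR, smallest adjusted p = 0.35), where 1154 genes had an unadjusted p under 0.05 (8.15%), 597 with a higher and 557 with a lower log2 response in the 1xLPS arm. Without a filter on low counts edgeR called 144 genes here. DESeq2 called 24 genes (11 higher and 13 lower) and limma voom with quality weights 1. Against the 4xLPS response edgeR called no gene (0%; smallest adjusted p = 0.9999), 300 genes were under 0.05 unadjusted (2.12%), DESeq2 and voom called 0, and edgeR without a filter called 4. The separate responses called 1506 rises (10.6%) and 1174 falls (8.29%) in the 4xLPS arm, and 1982 rises (14%) and 1597 falls (11.3%) in the PBS arm. A p that misses the threshold does not show that the arms respond alike. The treatment tag of the labels exchanges PBS and 4xLPS for 12 of the 18 same-titled samples. Under the tags of same-titled samples these 2 names would be exchanged, while title and tag agree for all 6 libraries of the 1xLPS arm. Matched instead by the sample number in the column header, the tag named the arm of the column in all 18 columns. By number, no name would be exchanged.

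Side by side, the log2 response of Nfkbia was 2.27 ± 0.18 in the 1xLPS arm, 2.63 ± 0.18 in the 4xLPS arm and 3.46 ± 0.19 in the PBS arm. Its difference of 1xLPS from PBS was -1.19 ± 0.25 (unadjusted p = 1.3e-04, adjusted p = 0.35 in edgeR, 0.0036 in DESeq2). Nfkbia had 172, 106 and 168 CPM in unstimulated libraries of the 1xLPS arm, against 90.5, 84.8 and 81.2 CPM in the PBS arm. Stimulated levels were 682, 691 and 769 CPM, against 829, 966 and 1027 CPM in the PBS arm. The difference thus joins a higher unstimulated and a lower stimulated level, which were not tested separately. Socs3 responded by 3.33 ± 0.23 in the 1xLPS arm, 3.25 ± 0.23 in the 4xLPS arm and 4.62 ± 0.25 in the PBS arm, a difference from PBS of -1.29 ± 0.31 (adjusted p = 0.35 in edgeR, 0.045 in DESeq2). Its unstimulated levels were 22.5, 12.3 and 22.98 CPM in the 1xLPS arm and 9.06, 12.4 and 10.0 CPM in the PBS arm. Stimulated levels were 188, 213 and 176 CPM against 304, 288 and 183 CPM. Nfkbia and Socs3 both encode inhibitors, and they were named in this comparison because they stood among the 24 genes, after their values were seen. The median log2 response of the mitochondrially encoded transcripts, a sign of RNA quality, was 0.69 in the 1xLPS arm (0.14 without stimulated library 3), 0.056 in the 4xLPS arm and -0.56 in the PBS arm, and 8 of these 15 differed between 1xLPS and PBS at an unadjusted p under 0.05, with higher responses in the 1xLPS arm. Its part in the differences between arms was not tested. Of the 15 NF-kappaB list members, 13 had a smaller log2 response than in the PBS arm, 8 at an unadjusted p under 0.05, beside 52.3% of the 1705 risen genes with a smaller response. The risen genes were chosen by their 1xLPS response, a choice that favours a large response there, so 52.3% is no neutral background. The same holds for the share of falls given below. Tnf responded by 6.25 ± 0.33 in the 1xLPS arm, 6.07 ± 0.33 in the 4xLPS arm and 7.36 ± 0.35 in the PBS arm (adjusted p = 0.45 for 1xLPS minus PBS). Ptgs2 gave 3.71 ± 0.48 in the 1xLPS arm, 1.74 ± 0.44 in the 4xLPS arm and 4.30 ± 0.49 in the PBS arm, with an unadjusted p of 0.0049 and an adjusted p of 0.9999 for 1xLPS minus 4xLPS. Tlr4 gave 0.15 ± 0.23 in the 1xLPS arm, 0.25 ± 0.22 in the 4xLPS arm and 0.074 ± 0.22 in the PBS arm. Among fallen genes, Lpar6 gave -4.13 ± 0.22 in the 1xLPS arm, -3.38 ± 0.21 in the 4xLPS arm and -4.43 ± 0.23 in the PBS arm, and 566 of the 1523 falls (37.2%) were smaller in size than the change in the PBS arm. The cytokine list had a median log2 response of 2.87 in the 1xLPS arm (2.34 to 3.85 with 1 library left out), 2.12 in the 4xLPS arm and 4.23 in the PBS arm. The MHC class I list had 0.44, 0.46 and 0.85 in the same order. Other lists had closer medians, in that order 3.69, 3.89 and 4.03 for chemokines and 3.56, 3.12 and 3.60 for interferon-inducible GTPases. Genes that sense LPS and pass on the signal had 0.52, 0.52 and 0.53.

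**Figure D5:**
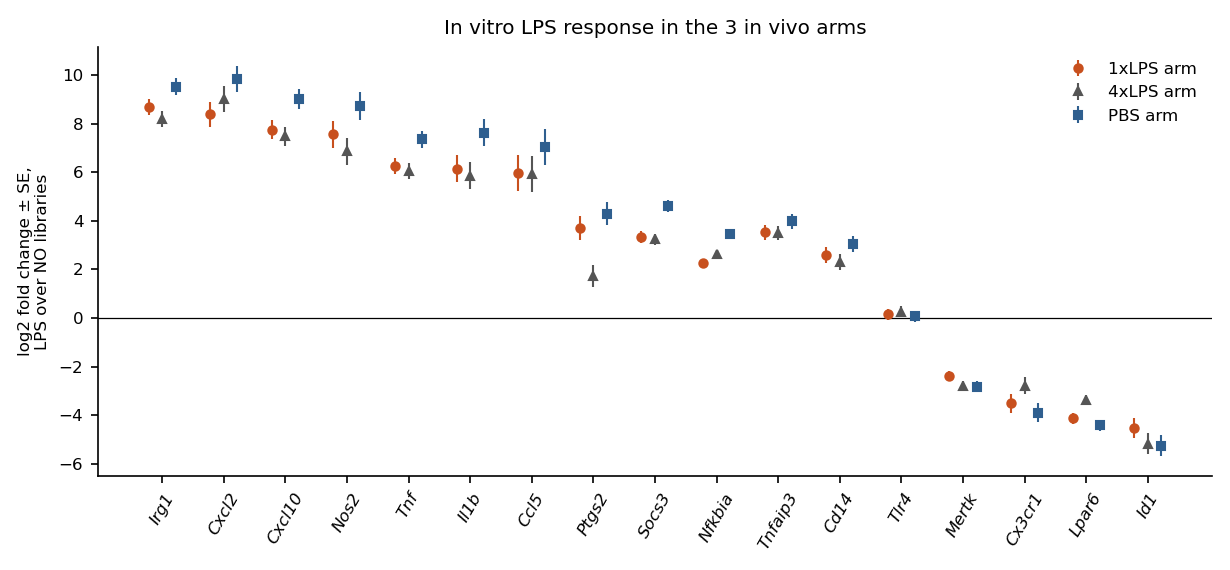
Log2 fold change (LPS over NO libraries) with its SE for 17 genes in the 1xLPS, 4xLPS and PBS arms, 3 libraries per group. For Nfkbia the values are 2.27, 2.63 and 3.46 in that order; no difference between arms was called by edgeR.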

How the data were processed

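Per the labels' protocols, polyadenylated RNA was isolated with Dynabeads from column-purified total RNA, made into libraries with the Ion Total RNA-Seq Kit v2 and read on an Ion Proton; the submitters' processing notes name Torrent Suite 5.12, TopHat2, Bowtie2, Cufflinks and mm10. The authors deposited raw counts per gene symbol for 18 libraries, in whole numbers on a sheet whose name reads RPM. The counting program, like the annotation and the use of strand, is not given in the sources used here. Columns were mapped by title, because for 12 of 18 samples the tag reads 4xLPS where the title reads PBS, or the reverse. Title and tag agree for all 6 columns of the 1xLPS arm. Matched by the sample number in the column header, the tag named the arm of the column in all 18 columns.

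Genes that reached 1 CPM in 3 or more libraries (14158 of 43280) were fitted with edgeR 4.0.16 (R 4.3.3): TMM factors, 1 mean per group over all 18 libraries (12 residual degrees of freedom), the quasi-likelihood test, and Benjamini-Hochberg adjustment over all tested genes. A gene is called at an adjusted p under 0.05, and the SE is the log2 fold change divided by the root of F. Levels are CPM and are not divided by gene length. Library totals ran over a wide range, so counting error is largest in unstimulated library 3. Alternatives were other scalings and filters, DESeq2 1.42.0, limma voom 3.58.1, fits of fewer libraries, each library left out, and a replicate block; the fit of 4 libraries was added after seeing the data. Scripts were tested on simulated data.

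The study's arms and the gene lists were chosen with earlier results of these data known. Named genes are the 15 largest rises and falls whose groups do not overlap, among genes whose group mean reached 5 CPM with or without LPS (no pseudogenes or predicted genes); from each list, members of smallest p among those called and of highest level among those not called; a fixed panel; and the 10 called genes of largest spread. Some genes that meet these rules are not reported here. Positions are from GENCODE M21, matched by symbol for 39382 of 43280 symbols. Copies are transcripts at least 95% identical over at least 200 bases (minimap2 2.31-r1302), and overlap is at least 10% of a gene's exons. Promoter windows are from RefSeq GRCm38.p6. Whether the replicate numbers pair the libraries of the 1xLPS arm was not settled, and the main fit did not pair them.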

Additional observations from a re-analysis of the deposited data

How the results depend on the processing

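Under every setting run, genes rose and genes fell, while the counts moved. Without TMM factors, with upper-quartile scaling and with DESeq2, 1156, 1397 and 1875 rose and 2198, 1913 and 1929 fell, so the share of rises among the calls was 34.5%, 42.2% and 49.3%, against 52.8% with TMM. With voom and quality weights, 2484 rose and 2381 fell. With no filter, 1865 rose and 1143 fell, and with a filter at 5 CPM 1585 and 1423. The fit of the 6 libraries alone gave 639 and 474, that without both outlying libraries 1923 and 1876, and that of the other 4 libraries alone, added after seeing the data, 1250 and 1230. Leaving out each library in turn gave 1206 to 2387 rises and 1012 to 1987 falls; falls were fewest without stimulated library 2. For the difference between the 1xLPS and PBS responses, 0 genes were called by edgeR, 24 by DESeq2, 1 by voom, 144 with no filter, and 0 to 1 with a library left out (1 without unstimulated library 2); for that between the 1xLPS and 4xLPS responses, 0 were called, and 4 with no filter. The cause of these moves was not tested. Deviations of same-numbered libraries correlated at -0.256, 0.436 and -0.13 for numbers 1, 2 and 3. The highest correlation of each stimulated library with an unstimulated one of another number was 0.158, 0.021 and 0.441. With 3 libraries per group, outlying ones among them, these values cannot show whether the numbers pair the libraries. A replicate block gave 1555 rises, 1238 falls and 0 calls for both differences between arms. Of the genes named in the text, 200 of 201 kept direction and side of the threshold with DESeq2, 196 of 201 without TMM factors, 187 of 201 in the 6 libraries alone, 193 of 201 with the block, and 188 to 197 with a library left out; none that was called reversed. At these depths, genes such as Ifnb1 and Il10 stayed under the filter.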

Other observations

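Other cell types could be present in macrophage cultures, and 11 of their 56 tested markers were called, beside 22.8% of all tested genes. Kdr, a receptor of endothelial cells, had 5.08, 4.96 and 3.52 CPM in the stimulated libraries, against 13.8, 17.1 and 14.3 CPM in the unstimulated libraries (log2 fold change -1.74 ± 0.21, adjusted p = 7.9e-06), the only one of these calls also made in the fit of the 6 libraries alone. The endothelial list gave 2 falls of 4 tested genes, and 1 fall without stimulated library 2. Zbtb46, a transcription factor of dendritic cells, had 4.98, 3.49 and 0.696 CPM with LPS, against 0.554, 1.06 and 0.422 CPM without (log2 fold change 2.06 ± 0.51, adjusted p = 0.0069, and 0.12 in the 6 libraries alone). Every stimulated library but library 3 lay above the unstimulated range. That list gave 1 rise of 4 tested, and 1 fall without unstimulated library 2.

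Blnk, an adaptor of B cell receptor signalling that macrophages also express, had 86.6, 115 and 186 CPM in stimulated macrophages, against 299, 191 and 266 CPM in unstimulated macrophages (log2 fold change -0.96 ± 0.24, adjusted p = 0.0079, and 0.093 in the 6 libraries alone). B cell markers gave 0 rises and 1 fall of 2 tested, with 1 rise without unstimulated library 1. The megakaryocyte and platelet list gave 1 fall of 5 tested, with 2 falls without stimulated library 3 and 3 falls without unstimulated library 2; its fall was Itgb3 (log2 -0.71 ± 0.16, adjusted p = 0.090 in the 6 libraries alone). Neutrophil markers gave 1 rise (Camp) and 1 fall (Mpo) of 12 tested, with 0 rises without stimulated library 1, unstimulated library 2 or unstimulated library 3, 2 rises without unstimulated library 1, 3 rises without stimulated library 3, 0 falls without stimulated library 1 or unstimulated library 1 and 2 falls without stimulated library 3. The stromal rise, Col1a1 (log2 0.78 ± 0.25), was not called in the 6 libraries alone (adjusted p = 0.28), and the list gave 0 rises without stimulated library 1 or unstimulated library 3, 2 rises without unstimulated library 2, 4 rises without unstimulated library 1, 7 rises without stimulated library 3 and 2 falls without stimulated library 1. Single rises in the mast cell and basophil (Hdc), erythroid (Car2) and osteoclast (Dcstamp) lists, of 4, 1 and 6 tested genes, were each lost without unstimulated library 2 (Hdc also without stimulated library 2, and Dcstamp also without stimulated libraries 2 and 3 and unstimulated library 1), and the osteoclast list gave 2 rises without stimulated library 3. T and NK cell markers (1 tested, 1 fall without stimulated library 3), eosinophil markers (2 tested, 1 rise without unstimulated library 2) and progenitor markers (6 tested) had 0 calls in the fit of all libraries. None of 29 cytosolic ribosomal protein genes was called, with 3 rises without unstimulated library 1.

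The 24 genes that DESeq2 called between the 1xLPS and PBS responses are described after their values were seen. The 11 with a higher response in the 1xLPS arm had symbols of predicted genes or of ribosomal protein copies, such as Rpsa-ps12 and Rps12l2, whose reads may be shared with their parent genes. Summed ribosomal protein levels, which differed between the libraries of the 1xLPS arm, are given above, and their part in these calls was not tested. The 13 with a lower response included the ribosomal protein gene Rpl35 (DESeq2 log2 difference -2.25, adjusted p = 0.0028), which has near-identical copies, Rab20 (DESeq2 log2 difference -1.09, adjusted p = 0.0028), a small GTPase of phagosome maturation, and Ampd3 (-0.86, adjusted p = 0.021), an AMP deaminase, beside Nfkbia and Socs3. In edgeR the adjusted p of these 5 genes was 0.35. Rab20 had 26.5, 27.5 and 33.6 CPM in unstimulated libraries of the 1xLPS arm, against 19.6, 15.7 and 17.4 CPM in the PBS arm. Its stimulated levels were 49.3, 58.1 and 57.9 CPM against 72.2, 69.3 and 66.4 CPM.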
